A study of Mus musculus with 22 samples.

Results

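Brain and muscle RNA from the same 7 mice was compared on 14 bead arrays, which were all the brain and all the muscle arrays among the 22 arrays of the series. Each mouse gave 1 brain and 1 muscle array, and the mouse identifiers in the labels paired them. The animals were C57BL/6J mice aged 17 weeks. Of these, 4 carried a mutation of Sgms1 (sphingomyelin synthase 1) and 3 were wild type, and no other allele or treatment is labelled. The series' text speaks of male mice. The labels do not say which brain region or muscle was taken, what kind of mutation it is, or whether the wild types were littermates. The 8 testis arrays came from other, older mice and served only in an alternative normalization. Every difference below is brain minus muscle, so a positive value means a higher level in brain.

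Skeletal muscle and brain are built from cells that differ in almost every specialised protein. Muscle fibres hold sarcomeres, in which myosin pulls on actin when calcium is released from the sarcoplasmic reticulum, and they burn glycogen, glucose and fatty acids to fuel this. Brain tissue holds neurons, which pass signals by fusing vesicles of transmitter with the membrane at synapses, and glia, which wrap axons in myelin and clear transmitter and ions. Both tissues run the same core pathways of energy use, but often with different isozymes, which are enzymes of 1 reaction made from different genes. Sphingolipids are membrane lipids built on ceramide. Myelin is rich in galactosylceramide and sulfatide, neurons in gangliosides, and most cells in sphingomyelin, which sphingomyelin synthase makes from ceramide and phosphatidylcholine.

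Promoters of 2 leading brain genes and 5 leading muscle genes are shown, since the data bear on genes that moved together by tissue. The 5 muscle windows were picked after the search as ones that hold the E-box letters named next. Each window holds 250 bases before and 50 bases after the annotated start of the gene's transcript, from RefSeq (GRCm38.p6). Capitals mark the letters CAGCTG, the E-box form read by myogenic factors such as MyoD, and TATAAA, the TATA box. Both strands were searched, and CAGCTG is its own reverse complement.
Syp, chrX:7638330-7638629, plus strand: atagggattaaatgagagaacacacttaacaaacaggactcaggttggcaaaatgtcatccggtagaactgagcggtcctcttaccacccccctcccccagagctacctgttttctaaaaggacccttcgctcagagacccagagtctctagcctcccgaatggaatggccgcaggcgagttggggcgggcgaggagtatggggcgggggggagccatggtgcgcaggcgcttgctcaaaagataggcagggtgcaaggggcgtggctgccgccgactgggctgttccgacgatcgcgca
Wasf1, chr10:40883284-40883583, plus strand: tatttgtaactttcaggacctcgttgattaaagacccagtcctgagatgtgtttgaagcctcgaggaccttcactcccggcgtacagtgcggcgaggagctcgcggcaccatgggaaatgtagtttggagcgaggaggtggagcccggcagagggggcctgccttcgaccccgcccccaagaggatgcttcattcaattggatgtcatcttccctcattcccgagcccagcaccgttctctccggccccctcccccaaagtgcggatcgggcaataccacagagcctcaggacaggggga
Rpl3l, chr17:24727576-24727875, plus strand: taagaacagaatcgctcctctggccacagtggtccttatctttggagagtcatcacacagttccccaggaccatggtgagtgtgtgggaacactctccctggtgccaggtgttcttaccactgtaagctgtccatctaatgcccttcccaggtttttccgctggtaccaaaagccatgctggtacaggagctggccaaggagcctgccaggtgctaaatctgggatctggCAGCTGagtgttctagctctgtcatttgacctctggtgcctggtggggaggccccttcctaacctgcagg
Eno3, chr11:70656926-70657225, plus strand: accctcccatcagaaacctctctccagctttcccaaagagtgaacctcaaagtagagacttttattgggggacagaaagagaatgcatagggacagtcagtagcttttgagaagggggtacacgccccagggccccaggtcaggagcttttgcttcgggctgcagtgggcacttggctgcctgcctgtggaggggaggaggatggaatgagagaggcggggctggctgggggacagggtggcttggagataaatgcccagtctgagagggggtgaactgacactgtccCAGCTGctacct
Atp2a1, chr7:126463024-126463323, minus strand: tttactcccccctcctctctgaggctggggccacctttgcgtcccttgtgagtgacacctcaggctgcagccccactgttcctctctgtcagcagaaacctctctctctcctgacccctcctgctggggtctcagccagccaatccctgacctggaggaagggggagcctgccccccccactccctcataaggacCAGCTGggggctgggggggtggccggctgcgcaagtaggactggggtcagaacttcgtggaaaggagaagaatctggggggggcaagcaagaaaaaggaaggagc
Des, chr1:75360042-75360341, plus strand: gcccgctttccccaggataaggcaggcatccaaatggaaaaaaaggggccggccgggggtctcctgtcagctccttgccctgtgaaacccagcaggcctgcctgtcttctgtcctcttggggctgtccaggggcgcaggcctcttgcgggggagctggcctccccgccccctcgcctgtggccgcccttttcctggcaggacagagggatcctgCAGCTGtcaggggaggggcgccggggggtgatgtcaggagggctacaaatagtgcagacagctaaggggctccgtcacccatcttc
Cox8b, chr7:140900397-140900696, minus strand: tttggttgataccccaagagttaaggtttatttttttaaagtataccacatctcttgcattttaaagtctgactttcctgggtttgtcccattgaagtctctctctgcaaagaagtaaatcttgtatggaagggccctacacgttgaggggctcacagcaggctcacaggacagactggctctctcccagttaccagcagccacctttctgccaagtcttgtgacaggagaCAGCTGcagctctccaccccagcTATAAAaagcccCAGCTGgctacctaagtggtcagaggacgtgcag

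Among the leading genes described below, windows were counted for 7 of 11 brain genes and 9 of 12 muscle genes. The other leading genes had no window or were left out of the count. Of the 12 brain windows, 1 held the E-box letters (a window of Rab15), against 8 of the 10 muscle windows. Counted from the start as 0, their first base lay at -20 in Rpl3l, 38 in Eno3, -55 in Atp2a1 and -36 in Des. In Cox8b they lay at -19 and 16, with the TATA letters between them at 4. Of the 10920 genes compared, 8818 had at least 1 window in the table, and genes with several starts had several windows. Sets of genes at least 64-fold higher in 1 tissue were formed by the fitted difference, also where the gene was at background in the other tissue. In the 64-fold brain set, 22.9% of 109 windows held the E-box letters, against 46.4% of 56 windows in the 64-fold muscle set. Of the windows of all genes called higher in brain 16.7% held them, against 18.0% for muscle and 16.0% for all genes compared. TATA letters stood in 11.9% of the 64-fold brain windows, against 21.4% of the 64-fold muscle windows and 8.12% of all compared. The median number of CG pairs per window was 13 in the 64-fold brain set, against 5.5 in the 64-fold muscle set and 19 over all genes compared. The letters CTAAAAATA or CTATTTATA, both forms of the MEF2 site, stood in 0 windows of the 64-fold brain set and in 3 of the 64-fold muscle set. The reverse complement of CTATTTATA contains TATAAA, so these searches overlap. The 64-fold sets were formed after the levels were seen, and these shares describe letters in windows, with no test.

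Before the comparison, the labels were checked. Sgms1 was lower on 3 of the 4 brain arrays labelled mutant, at 6.06, 7.59, 5.80 and 6.03, against 7.79, 7.52 and 6.11 on the brain arrays labelled wild type (mutant 1 to 4, then wild type 1 to 3, log2 level). The arrays labelled brain mutant 2 and brain wild type 3 therefore went against their genotype labels. In muscle Sgms1 lay at 8.06, 8.32, 8.13 and 7.99 in mutants and at 8.56, 8.86 and 8.89 in wild types, which do not overlap. The labels do not place the Sgms1 probe inside or outside the mutated stretch. Between tissues no label was in doubt, since every array carried the markers of its own tissue. The mean level of 18 neuronal genes was 10.18 to 10.34 on brain arrays and 5.08 to 5.26 on muscle arrays, and that of 14 fast fibre genes was 5.18 to 5.74 on brain arrays and 12.70 to 12.86 on muscle arrays.

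More probes were detected in brain, from 14676 to 15299 per array, than in muscle, from 10652 to 11466. A probe counted as detected when the deposited detection p was under 0.05. Raw median intensity was 112 to 143 on brain arrays and 133 to 143 on muscle arrays. Of 25697 probes, 8557 were detected on all 14 arrays, 1958 on all 7 brain arrays and 0 muscle arrays, and 193 on all 7 muscle arrays and 0 brain arrays. For comparison, 16073 probes of 10920 named genes were kept, each detected on at least 3 arrays of 1 tissue. The number of arrays limits the precision, and the median SD over the 7 mice was 0.14 in brain and 0.20 in muscle on the log2 scale.

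The tissues differed across much of the transcriptome. In limma's paired fit, 3087 probes (19.2%) were higher in brain and 3161 (19.7%) were higher in muscle, by at least 2-fold and at an adjusted p under 0.05. Together these were 6248 probes, or 38.9% of those compared, and 6203 of them had the same sign in all 7 mice. With no minimum fold, 79.9% of the probes passed an adjusted p of 0.05. With the probe of highest mean per gene, 2263 genes (20.7%) were higher in brain and 2251 (20.6%) in muscle. The brain and muscle arrays did not overlap for 9687 probes (60.3%). The first principal component, which separated the tissues, held 93.8% of the variance. Differences of 8-fold or more were more frequent in brain, with 861 probes, than in muscle, with 450.

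How the arrays were scaled against each other moved this split. Brain-higher probes made up 49.4% of the calls with all 14 arrays quantile-normalized together. They made up 77.2% with median scaling, 88.3% with each tissue normalized on its own and 44.2% when arrays were scaled to the probes detected on all 14. These scalings moved the median over all probes to 0.34, 0.81 and -0.33 on the log2 scale, against 0.0052 in the values reported here. Over these 3 scalings the largest difference whose direction turned was 1.43 on the log2 scale, and 653 calls turned with each tissue normalized on its own. The direction of smaller differences is therefore relative to this choice. The split also moved with detection. Among only the probes detected on all 14 arrays, brain-higher probes made up 31.9% of the calls, with 1157 higher in brain and 2467 higher in muscle. Of all calls, 1134 brain-higher probes were detected on 0 muscle arrays, and 262 muscle-higher probes on 0 brain arrays. In bulk tissue, fewer cells of a type and less RNA per cell cannot be told apart.

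**Figure D1:**
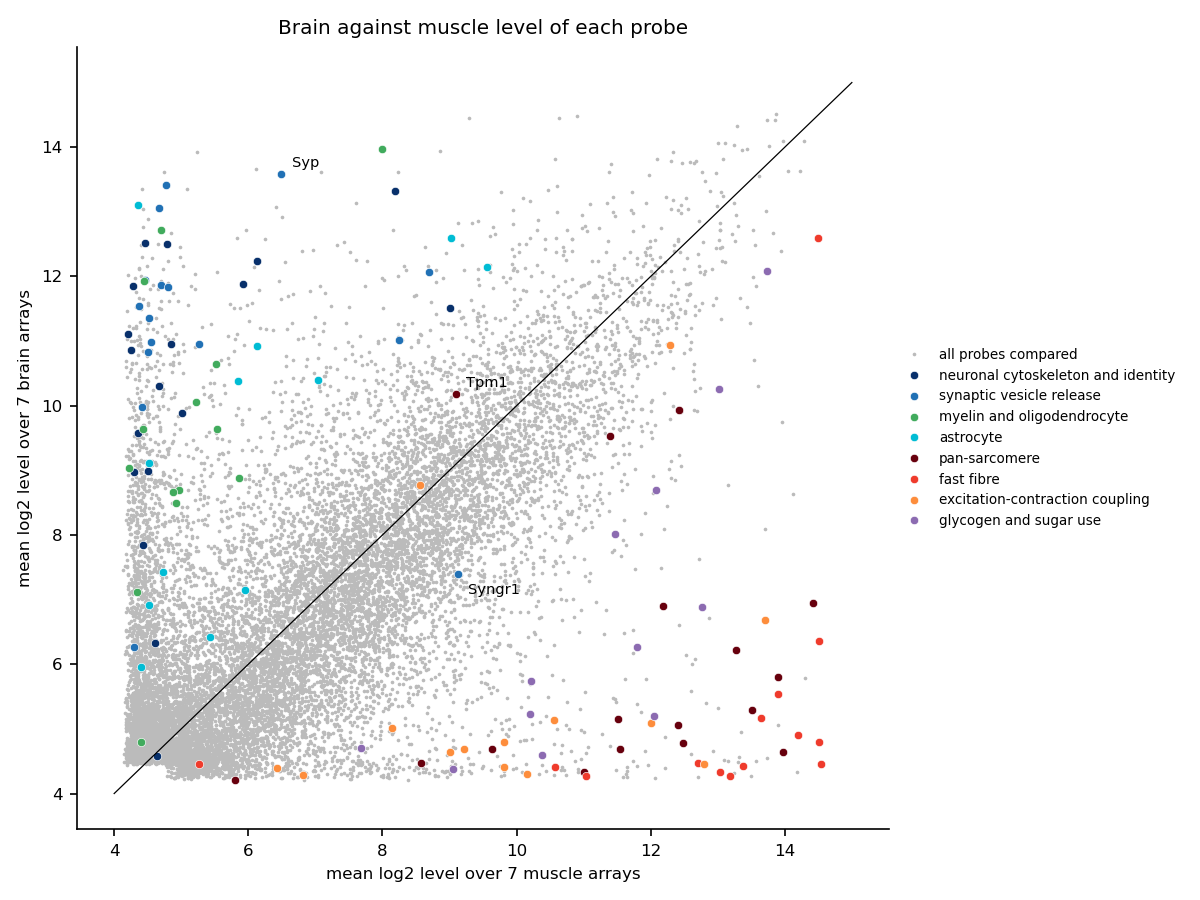
Mean log2 level of each probe over the 7 brain arrays (vertical axis) against the 7 muscle arrays (horizontal axis), with all 16073 probes in grey and the members of 4 brain lists and 4 muscle lists in colour. Brain list members lie above the diagonal of equal level and muscle list members below it, with Syngr1 and Tpm1 among the exceptions.

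Among genes detected on all 14 arrays, the largest brain difference belonged to Syp, which encodes synaptophysin, a protein of synaptic vesicles. Syp lay at 13.54, 13.58 and 13.65 on brain arrays, against 6.23, 6.30 and 7.12 on muscle arrays (lowest, median and highest log2 level). The tissues were far apart, and the difference was 7.10 ± 0.13 (SE, n = 7 mice), or 137-fold, with an adjusted p of 4.09e-12. Vsnl1, a calcium sensor of neurons, followed with 12.54, 12.57 and 12.66 in brain, against 5.63, 5.76 and 6.25 in muscle, a difference of 6.75 ± 0.08. Then came Atp6v1g2, a subunit of the proton pump that fills vesicles, at 6.42 ± 0.07, and Bcas1, a protein of oligodendrocytes, at 6.32 ± 0.12. Stmn2, a neuronal regulator of microtubules, differed by 6.11 ± 0.12, and Wasf1, which directs actin branching, by 6.06 ± 0.12. Mbp, myelin basic protein, differed by 5.98 ± 0.13. The others of the leading set were Enc1, Rgs7bp, Rab15 and both leading probes of Klc1, the kinesin light chain that carries cargo along axons, at 5.71, 5.68, 5.63, 5.59 and 5.54.

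In muscle, the leading gene by this measure was Actn3, the alpha-actinin of the Z line in fast fibres. Actn3 lay at 4.83, 4.88 and 5.00 on brain arrays, against 14.12, 14.20 and 14.28 on muscle arrays. Its difference was -9.29 ± 0.06, or 626-fold lower in brain, with an adjusted p of 3.92e-14. Rpl3l followed at -8.84 ± 0.08, a ribosomal protein gene described with its paralogue below. Eno3, the muscle enolase, differed by -8.50 ± 0.06, Tnni2, the fast troponin I, by -8.48 ± 0.18, and Ckmt2, the sarcomeric mitochondrial creatine kinase, by -8.39 ± 0.06. Atp2a1, the calcium pump of fast fibres, differed by -8.35 ± 0.17, Tmod4, which caps thin filaments, by -8.27 ± 0.07, and Tcap, which anchors titin, by -8.22 ± 0.10. Myl1, Tpm2, Des and Cox8b differed by -8.15, -8.09, -7.69 and -7.69.

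Neuronal genes were higher in brain. Of 18 neuronal cytoskeleton and identity genes compared, 17 were called higher in brain and 0 higher in muscle, with a median difference of 5.43 (5.38 with undetected members at their bound, as explained next), beside a median of -0.01 over all genes. Rbfox3, the antigen NeuN used to mark neuronal nuclei, lay at 12.36, 12.50 and 12.62 in brain, against 4.32, 4.41 and 4.81 in muscle. It was detected on 0 of 7 muscle arrays, so its difference is a bound, at least 161-fold higher in brain. Bounds of this kind set the bright tissue's mean against the lowest detected signal of each dim array, or against the probe's own value where that was higher. They are also given for probes detected on 1 or 2 arrays of the dim tissue, with that number. Calls used the fitted difference, so the bound of a called gene can lie under 2-fold. The lowest detected signal was 4.53 to 4.58 on brain arrays and 5.10 to 5.33 on muscle arrays, so bounds in the 2 directions are not alike. Gap43, of growing axons, and Nrgn, which binds calmodulin in dendrites, were at least 61-fold and 102-fold higher. Map2, of dendritic microtubules, was detected on 6 of 7 muscle arrays and differed by 5.97 ± 0.15. The exception was Tubb3, a tubulin of neurons, whose probe lay near background at 4.27, 4.61 and 4.70 in brain, against 4.25, 4.45 and 5.10 in muscle, and did not pass the test at an adjusted p of 0.711.

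Genes of synaptic vesicle release moved with them. Of 16 compared, 15 were called higher in brain and 1 higher in muscle, with a median difference of 6.64 (6.09 at the bounds). Cplx1, complexin 1, which clamps the fusion machinery, lay at 13.34, 13.42 and 13.46 in brain, against 4.37, 4.70 and 5.43 in muscle. Its probe was detected on 2 of 7 muscle arrays, and it was at least 291-fold higher in brain. Syt1, the calcium sensor of fusion, was at least 71.5-fold higher, and Syn1, which tethers vesicles, at least 235-fold, each detected on 1 of 7 muscle arrays. The vesicle transporters for glutamate and for GABA were higher in brain as well. Slc17a7, also detected on 1 muscle array, was at least 100-fold higher, and Slc32a1 was at least 109-fold higher. The 1 member called the other way, Syngr1, was not called with median scaling or with each tissue on its own. Its probes disagreed, as described with other such genes below.

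Transmitter and neuropeptide genes were higher in brain. Of 18 compared, 17 were called higher in brain, with a median difference of 3.50 (2.86 at the bounds). Of these 18, 13 were detected on at least 1 brain array and on 0 muscle arrays. Gad1, which makes GABA, lay at 11.68, 11.94 and 12.33 in brain, against 4.19, 4.32 and 4.79 in muscle, at least 113-fold higher. Sst, somatostatin, was at least 89.9-fold higher. Among other peptides, Cck was at least 40.5-fold and Npy at least 31.7-fold higher, each detected on 1 of 7 muscle arrays. Hypothalamic Pmch and striatal Pdyn were at least 20.1-fold and 18.2-fold higher, with no overlap between tissues. Of 18 glutamate and GABA receptor and scaffold genes 10 were called higher in brain and 0 higher in muscle, with a median of 1.57 (0.74 at the bounds, under the 2-fold limit). The AMPA receptor subunit Gria2 lay at 11.70, 11.90 and 12.11 in brain, against 4.40, 4.70 and 5.29 in muscle. It was detected on 1 of 7 muscle arrays and was at least 103-fold higher in brain. Gria1 was at least 23.1-fold higher, and Dlg4, the scaffold PSD-95, at least 10.9-fold, detected on 1 muscle array. The scaffold Homer1 lay at 9.58, 9.70 and 9.93 in brain, against 9.78, 10.01 and 10.51 in muscle, so the tissues overlapped. The kainate receptor Grik2, detected on 1 of 7 brain arrays, gave a difference of -0.96, just under the 2-fold limit.

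Glial genes were also higher in brain. Of 14 myelin and oligodendrocyte genes, 13 were called higher in brain and 0 higher in muscle, with a median of 4.46 (3.98 at the bounds). Cldn11, the claudin of myelin sheaths, lay at 12.49, 12.71 and 12.95 in brain, against 4.39, 4.57 and 5.35 in muscle. It was detected on 1 of 7 muscle arrays and was at least 182-fold higher in brain. Olig1, a transcription factor of the lineage, was at least 108-fold higher. Mbp lay at 13.88, 13.99 and 14.12 in brain, against 7.22, 8.10 and 8.41 in muscle, so it was detected well above background in muscle too. Of 12 astrocyte genes, 11 were called higher in brain, with a median of 3.02. Aldoc, the aldolase of astrocytes, was at least 242-fold higher. Slc1a2, the main glutamate transporter, was at least 15.3-fold higher, whereas the gap junction gene Gja1 and the water channel Aqp4, which muscle fibres also make, differed by 2.59 ± 0.11 and 3.35 ± 0.14.

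Of 14 genes of microglia and macrophages compared, 4 were called higher in brain and 3 higher in muscle, with a median of 0.68. These counts were 9 and 3 with median scaling, 10 and 2 with each tissue normalized on its own, and 1 and 2 without background correction. Cx3cr1, the fractalkine receptor of microglia, lay at 7.39, 7.58 and 7.69 in brain, against 4.28, 4.61 and 5.24 in muscle, at least 5.24-fold higher. Trem2, C1qa and P2ry12 were the other three called higher in brain. The scavenger receptors Cd163 and Mrc1 and the lysozyme gene Lyz2, all of tissue macrophages, were lower in brain, with differences of -2.37, -2.22 and -2.50. Cd163 was detected on 4 of 7 brain arrays. Lyz2 lay at 6.05, 6.55 and 6.89 in brain, against 8.50, 8.99 and 9.94 in muscle, with no overlap.

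**Figure D2:**
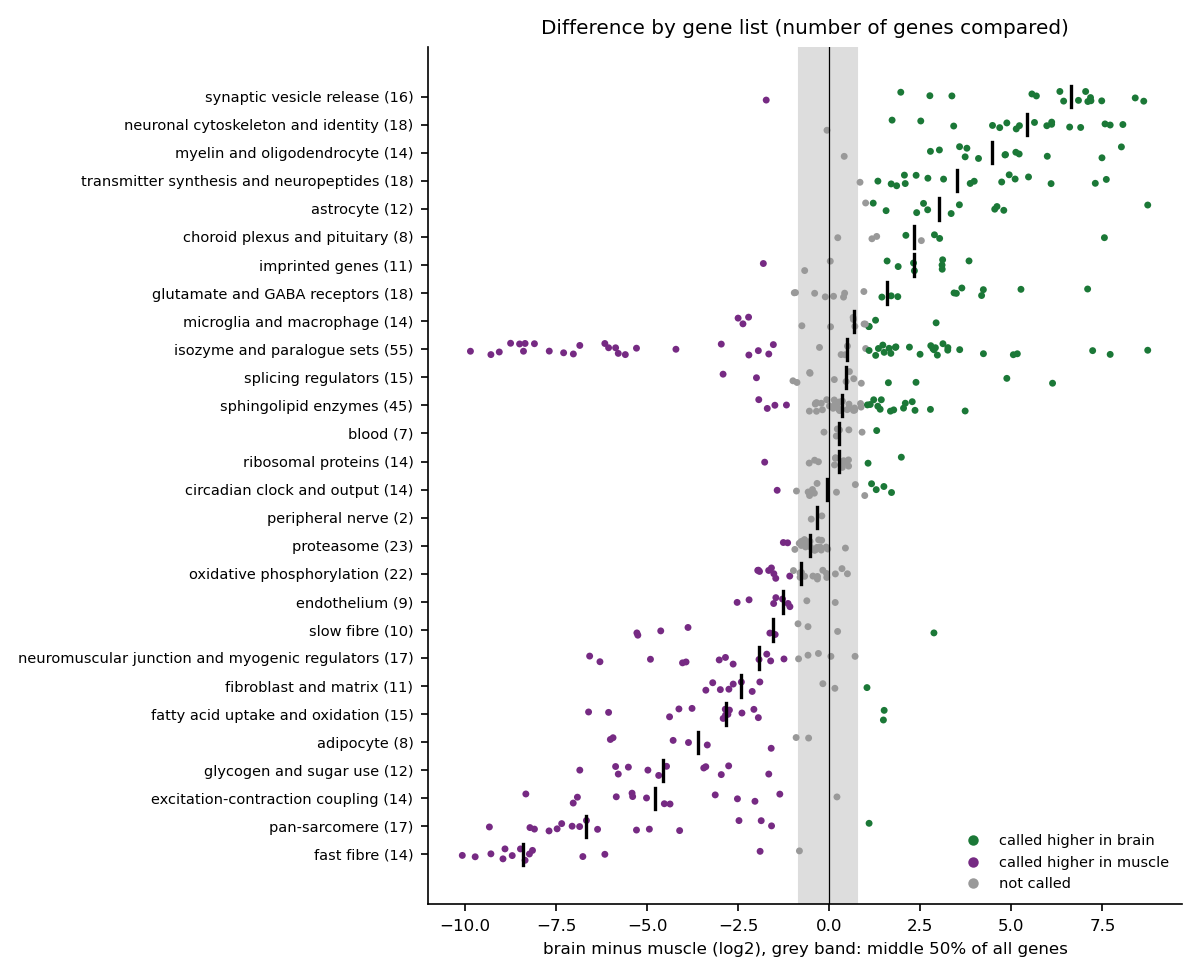
Difference brain minus muscle (log2) for each gene compared in the 28 gene lists, 1 row per list in order of the median (black bar), with the middle 50% of all 10920 genes as a grey band. Points are fitted differences, also where a gene was at background in 1 tissue. Neuronal, synaptic and glial lists lie to the right, and sarcomere, fast fibre and calcium release lists to the left. The OXPHOS, proteasome and ribosomal medians lie within the grey band, OXPHOS near its left edge.

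Sarcomere genes were higher in muscle. Of 17 genes common to all fibre types, 16 were called higher in muscle and 1 higher in brain, with a median difference of -6.67 (-6.45 at the bounds). Ttn, titin, the spring of the sarcomere, lay at 4.51, 4.62 and 4.99 in brain, against 13.84, 13.99 and 14.05 in muscle, a difference of -9.33 ± 0.08, and was detected on 5 of 7 brain arrays. Des, desmin, the intermediate filament around the Z line, lay at 4.59, 4.81 and 4.98 in brain, against 12.40, 12.46 and 12.56 in muscle. Acta1, skeletal actin, differed by -7.47 ± 0.11. The member called higher in brain was Tpm1, a tropomyosin that many cells make in other splice forms, at 10.02, 10.22 and 10.31 in brain, against 8.70, 9.14 and 9.29 in muscle.

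Fast fibre genes had the largest median difference of the 28 lists. Of 14 compared, 13 were called higher in muscle and 0 higher in brain, with a median of -8.41. Mylpf, the regulatory light chain of fast myosin, lay at 4.26, 4.34 and 5.14 in brain, against 14.50, 14.54 and 14.56 in muscle. It was detected on 1 of 7 brain arrays and was at least 953-fold higher in muscle. Myh4, the heavy chain of the fastest fibres, was at least 393-fold higher in muscle. Tnnc2, fast troponin C, differed by -9.72 ± 0.17 and was detected on 5 of 7 brain arrays. Tnnt3, fast troponin T, was detected on 2 brain arrays and was at least 446-fold higher in muscle.

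Slow fibre genes were less even, and muscle arrays differed among themselves. Of 10 compared, 6 were called higher in muscle and 1 higher in brain, with a median of -1.56. Myl2, the slow regulatory light chain, lay between 4.62 and 5.05 in brain. In muscle it lay at 11.70, 12.03, 8.15 and 9.64 in mutants 1 to 4, and at 10.51, 9.88 and 8.89 in wild types 1 to 3. Tnnt1, slow troponin T, lay at 10.67, 11.28, 7.75 and 9.06 in mutant muscles, and at 7.15, 7.58 and 7.54 in wild-type muscles. Both genes were highest in the muscles of mutants 1 and 2. For Tnnt1 the tissues overlapped, and it did not pass the test at an adjusted p of 0.122. The part that the sampled muscle or region of muscle played in this was not tested. Atp2a2, the calcium pump of slow fibres and of many other cells, was the member higher in brain, at 13.22, 13.34 and 13.46, against 9.80, 10.19 and 11.56 in muscle.

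Calcium release genes followed the fast fibre pattern, with 13 of 14 called higher in muscle, 0 higher in brain and a median of -4.77. Ryr1, the calcium release channel, lay at 6.48, 6.69 and 6.99 in brain, against 13.64, 13.72 and 13.76 in muscle, a difference of -7.03 ± 0.07. Hrc, which binds calcium inside the reticulum, was detected on 2 of 7 brain arrays and was at least 301-fold higher in muscle. Cacng1, a subunit of the muscle calcium channel, was at least 48.3-fold higher in muscle. The exception was Cacna2d1, a channel subunit of both tissues, at 8.26, 8.86 and 9.24 in brain, against 7.67, 8.61 and 9.34 in muscle, with overlap. Of 17 genes of the neuromuscular junction and of myogenic control, 12 were called higher in muscle and 0 higher in brain, with a median of -1.93. The 12 became 8 with each tissue on its own and 7 without background correction. Myf6, the myogenic factor of mature fibres, was at least 82-fold higher in muscle, and Chrna1, the acetylcholine receptor subunit, at least 12.4-fold. Lrp4, the agrin receptor, lay higher in brain by 0.71 ± 0.10, under the 2-fold limit.

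Fuel genes went towards muscle. All 12 glycogen and sugar genes compared were called higher in muscle, with a median of -4.58. Pygm, the muscle glycogen phosphorylase, lay at 4.88, 5.27 and 5.38 in brain, against 11.91, 12.06 and 12.11 in muscle. Phkg1, of phosphorylase kinase, differed by -5.52 ± 0.08. Of 15 fatty acid genes, 13 were called higher in muscle and 2 higher in brain, with a median of -2.85. Pdk4, which holds back glucose oxidation, lay at 5.88, 5.96 and 6.37 in brain, against 12.40, 12.52 and 12.94 in muscle, and Ucp3 was at least 15.7-fold higher in muscle. The pair called higher in brain were Cpt1c, the brain form of carnitine palmitoyltransferase, at least 1.64-fold, and Acsl6, an acyl-CoA synthetase, by 1.49 ± 0.08. The bound of Cpt1c lay under the 2-fold limit.

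Shared machinery differed far less than the neuronal and sarcomere lists. Of 22 oxidative phosphorylation genes, 8 were called higher in muscle and 0 higher in brain, with a median of -0.78. Over all genes, 20.6% were called higher in muscle and the lower quartile was -0.82, so this list leaned to muscle more than genes at large. Sdhc of complex II lay at 9.47, 9.86 and 9.89 in brain, against 11.53, 11.75 and 11.82 in muscle, and Cyc1 of complex III differed by -1.92 ± 0.09. The number called higher in muscle was 5 with median scaling, 2 with each tissue normalized on its own and 17 when scaled to the probes detected on all 14 arrays. The median of this list stayed below 0 under these scalings, at -0.67, -0.19 and -1.33. Of 23 proteasome genes, 2 were called higher in muscle and 0 higher in brain, with a median of -0.52, which turned to 0.04 with median scaling and to 0.51 with each tissue on its own, where 3 were called higher in brain and 0 higher in muscle. Of 14 ribosomal protein genes, 2 were called higher in brain and 1 higher in muscle, with a median of 0.27, which turned to -0.09 when scaled to the probes detected on all 14 arrays. With each tissue on its own, 7 were called higher in brain and 0 higher in muscle.

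Ribosomal protein L3 was divided between a general and a muscle gene. Rpl3, which sits near the catalytic centre of the large subunit, lay at 12.58, 12.76 and 12.82 in brain, against 10.55, 10.71 and 11.07 in muscle. Rpl3l, its paralogue of striated muscle, lay at 4.94, 5.00 and 5.41 in brain, against 13.85, 13.90 and 13.93 in muscle. The tissues did not overlap for either gene, and the signs were opposite. Rpl3 was 3.94-fold higher in brain, with a difference of 1.98 ± 0.08, whereas Rpl3l was 458-fold lower in brain.

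Many enzymes showed the same division into a brain and a muscle gene. Of 55 isozyme and paralogue genes compared, 26 were called higher in brain, 24 higher in muscle and 5 neither. For cytosolic creatine kinase, which regenerates ATP from phosphocreatine, Ckb lay at 14.34, 14.50 and 14.54 in brain, against 8.97, 9.34 and 9.53 in muscle. Ckm lay at 4.18, 4.29 and 4.77 in brain, against 14.12, 14.15 and 14.34 in muscle, and was detected on 1 of 7 brain arrays. The mitochondrial forms went the same way, with Ckmt1 at least 88.9-fold higher in brain and Ckmt2 337-fold lower.

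The later steps of glycolysis were split likewise. Eno2, the neuronal enolase, lay at 12.33, 12.51 and 12.61 in brain, against 4.43, 4.60 and 5.71 in muscle, and was at least 150-fold higher in brain, with detection on 2 of 7 muscle arrays. Eno3 lay at 5.69, 5.81 and 5.88 in brain, against 14.24, 14.28 and 14.34 in muscle, and was 362-fold lower. Phosphoglycerate mutase gave 2.91 ± 0.17 for Pgam1, detected on 6 of 7 muscle arrays, and -7.03 ± 0.09 for Pgam2. In the upper part, phosphofructokinase gave 3.58 ± 0.15 for Pfkp, 2.49 ± 0.13 for Pfkl and -1.66 ± 0.07 for Pfkm. Pfkm, the muscle form, lay at 11.98, 12.04 and 12.17 in brain, against 13.61, 13.74 and 13.84 in muscle. Aldoa, the muscle aldolase, likewise stayed high in both tissues, at 11.80, 11.95 and 12.34 in brain, against 13.30, 13.56 and 13.74 in muscle, whereas Aldoc was at background in muscle. Hexokinase gave at least 6.44-fold higher in brain for Hk1 and a difference of -5.87 ± 0.08 for Hk2, the form that follows insulin. Glycogen phosphorylase gave 2.79 ± 0.22 for Pygb and -6.85 ± 0.08 for Pygm.

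Small subunits of cytochrome c oxidase, the last enzyme of respiration, repeated the pattern for 2 of 3 positions. Cox6a1 and Cox8a were higher in brain by 2.97 ± 0.15 and 3.12 ± 0.11, whereas Cox6a2 and Cox8b were lower, with differences of -5.60 and -7.69. At the third position Cox7a1, the muscle form, was lower in brain, with a difference of -6.16, but the general form Cox7a2 lay at 7.60, 7.75 and 7.88 in brain, against 7.49, 7.86 and 8.41 in muscle, with overlap. Calcium pumps, glucose transporters and carnitine palmitoyltransferases also divided. Atp2a2 differed by 2.87 ± 0.21 and Atp2a1 by -8.35 ± 0.17. The glucose carriers of the blood-brain barrier and of neurons, Slc2a1 and Slc2a3, differed by 2.20 ± 0.09 and 1.83 ± 0.07, and the insulin-regulated carrier Slc2a4, detected on 5 of 7 brain arrays, by -5.79 ± 0.06. Cpt1b differed by -6.06 ± 0.09, against the bound of Cpt1c above. Carbonic anhydrase gave at least 11.9-fold higher in brain for Car2 and at least 136-fold higher in muscle for Car3. AMP deaminase gave at least 3.91-fold higher in brain for Ampd2 and at least 510-fold higher in muscle for Ampd1, detected on 2 of 7 brain arrays. Mb, myoglobin, lay at 4.33, 4.50 and 4.89 in brain, against 13.07, 13.38 and 13.49 in muscle, whereas Ngb, neuroglobin, was at least 1.59-fold higher in brain. Levels of different genes were not set against each other, since probes differ in brightness.

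**Figure D3:**
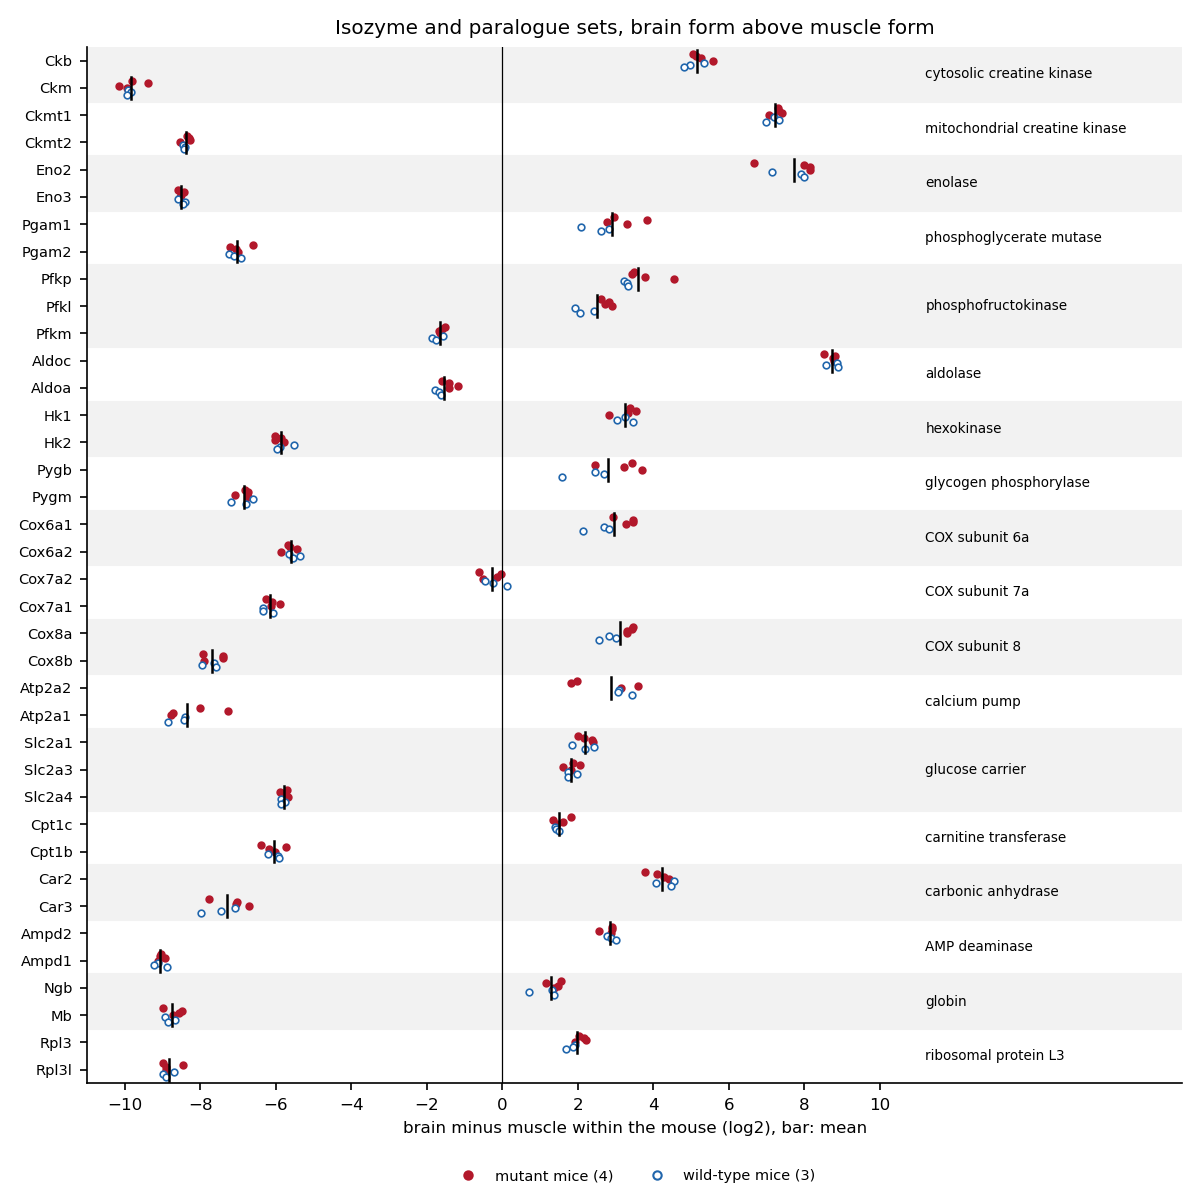
Difference brain minus muscle (log2) within each mouse for genes of 18 isozyme or paralogue sets, with mutant mice as filled and wild-type mice as open circles and the mean as a bar, also where a form was at background in 1 tissue. The 18 sets hold 38 genes and were picked, so not all of the 55 isozyme and paralogue genes compared are drawn. In each set drawn the brain form lies to the right of 0 and the muscle form to the left, except Cox7a2, which lies beside 0.

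Of 45 sphingolipid genes compared, 14 were called higher in brain and 4 higher in muscle, with a median of 0.36. Those higher in brain included the enzymes of myelin lipids. Ugt8a, which makes galactosylceramide, lay at 8.44, 8.66 and 9.03 in brain, against 4.53, 4.97 and 5.17 in muscle, at least 11.4-fold higher. Gal3st1, which turns it into sulfatide, was at least 3.82-fold higher. Ceramide synthases Cers1 and Cers4 were at least 2.17-fold and 2.65-fold higher, and Cers2, which makes the long ceramides of myelin, lay at 9.97, 10.01 and 10.39 in brain, against 8.42, 8.61 and 9.03 in muscle. The first enzyme of glycosphingolipids, Ugcg, differed by 1.77 ± 0.11, and St8sia3, a sialyltransferase, was at least 2.84-fold higher.

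The 4 genes called lower in brain were Samd8, Sgms1, Cert1 and Sptssa. Samd8, a relative of the synthases that makes ceramide phosphoethanolamine, lay at 4.70, 4.89 and 5.00 in brain, against 6.59, 6.84 and 6.92 in muscle. Cert1, which carries ceramide to the Golgi, lay at 5.30, 5.46 and 5.62 in brain, against 6.84, 6.93 and 7.07 in muscle. Sgms1 lay at 5.80, 6.11 and 7.79 in brain, against 7.99, 8.32 and 8.89 in muscle. The groups did not overlap for Samd8, Cert1 or Sgms1, and Sgms1 was lower in brain in all 7 mice, with a difference of -1.70 and an adjusted p of 6.07e-05. Without the mice of the libraries labelled brain wild type 3 and brain mutant 2, its difference was -1.69. In wild types alone it was -1.63, and without the third of these -1.06. In the mutants without the second it was -2.10. Wild type 3 and mutant 2 were left out because of their own brain Sgms1 levels. The gap between -1.06 and -2.10 therefore cannot decide whether the genotypes differed. With all mice kept, the genotypes overlapped, at -2.78 to -0.78 in wild types and -2.33 to -0.72 in mutants. The Sgms1 difference shrank to -0.81 with median scaling and to -0.35 with each tissue normalized on its own, both under the 2-fold limit, and missed that limit narrowly without background correction. Sgms2, the second sphingomyelin synthase, was near background at 4.42, 4.61 and 4.81 in brain, against 4.25, 4.27 and 4.44 in muscle, and was not called. Of the 45 genes, 24 were called higher in brain and 1 higher in muscle with median scaling, 30 and 0 with each tissue on its own, and 5 and 0 without background correction, so the count for this list depends on the scaling.

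Adipocyte, matrix and endothelial genes were mostly called higher in muscle, and adipocyte genes were uneven among the muscles. Of 8 adipocyte genes, 6 were called higher in muscle, with a median of -3.61 (-3.45 at the bounds). Adipoq, adiponectin, was detected on 0 of 7 brain arrays and lay in muscle at 10.08, 9.28, 10.38 and 9.06 in mutants, and at 10.92, 11.01 and 11.89 in wild types. The mean level of the 8 genes was 5.08 to 5.26 on brain arrays. On muscle arrays it was 7.31 to 8.34 in mutants and 8.98 to 9.88 in wild types. Of 11 fibroblast and matrix genes, 8 were called higher in muscle and 1, Sparc, higher in brain, with a median of -2.41. Collagen gene Col3a1 was at least 7.76-fold higher in muscle. Of 9 endothelial genes, 7 were called higher in muscle and 0 higher in brain, with a median of -1.28, and the cadherin Cdh5 differed by -2.53 ± 0.07. This number fell to 2 with median scaling and to 1, beside 1 higher in brain, with each tissue on its own. Of 7 blood genes, 1, S100a8, was called higher in brain. The erythroid gene Alas2 lay at 7.02, 7.39 and 7.92 in brain, against 6.73, 7.36 and 8.25 in muscle, and did not pass the test.

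Pituitary genes stood out on single brain arrays. Gh, growth hormone, lay at 5.31, 4.99, 5.37 and 4.30 on the brain arrays of mutants 1 to 4, and at 4.67, 14.05 and 11.83 on those of wild types 1 to 3. Prl, prolactin, lay at 4.84, 4.76, 4.80 and 4.49 in mutants and at 4.47, 13.42 and 10.76 in wild types. Both hormones of the anterior pituitary thus stood high on the brain arrays of wild types 2 and 3 and near background on the other five. Gh passed the test of brain against muscle at an adjusted p of 0.0446, with overlapping groups, and Prl did not, at 0.0521. Ttr, transthyretin, which the choroid plexus makes, was high on every brain array, at 13.41, 13.72 and 13.76, against 5.10, 6.12 and 6.97 in muscle. Muscle genes also stood out on 1 brain array. On that of mutant 2, Myl1 reached 7.74, against 5.70 to 6.72 on the other brain arrays, and Tnni2 reached 6.22, against 4.71 to 5.46. The part these arrays play in other genes was not tested. Without the mice of wild types 2 and 3, 3139 probes were called higher in brain and 3243 higher in muscle.

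**Figure D4:**
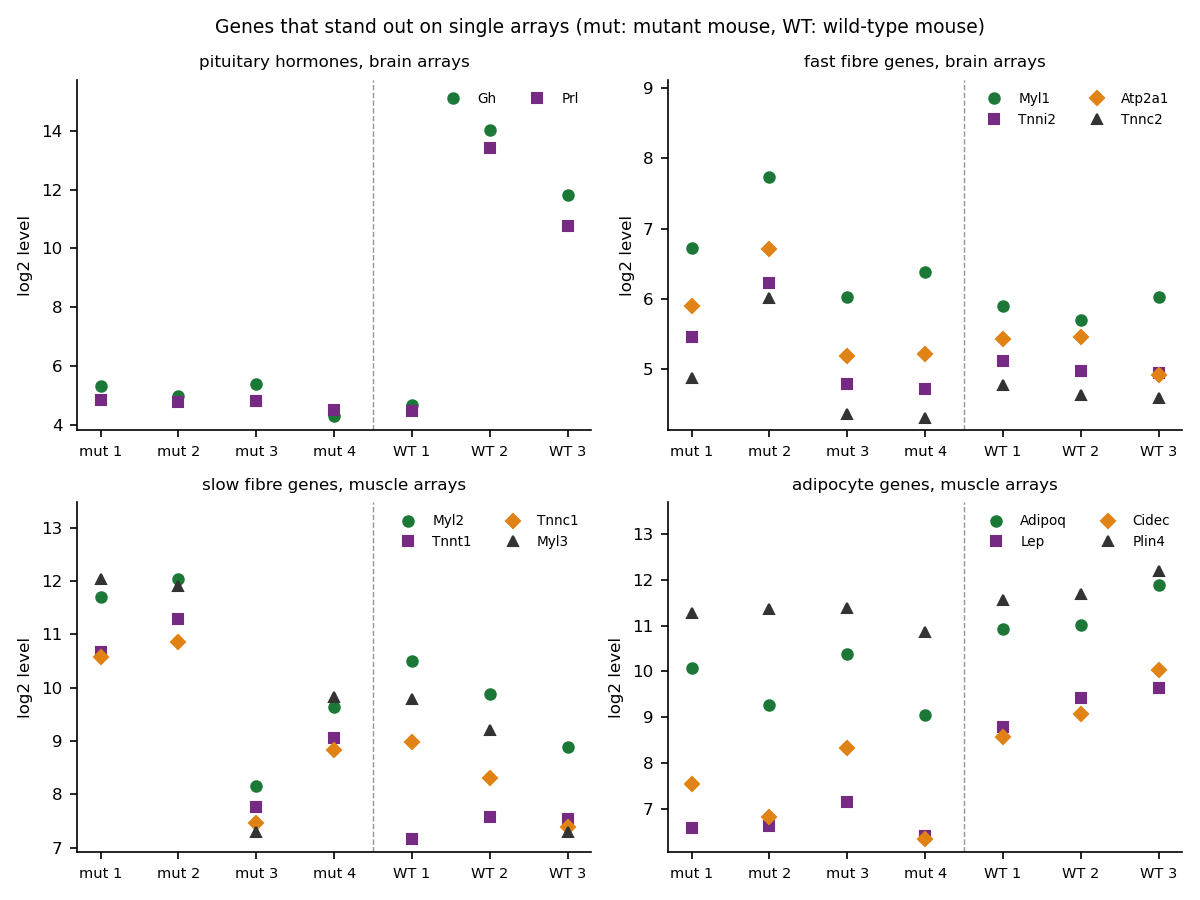
Log2 levels on single arrays, mutant mice 1 to 4 left of wild-type mice 1 to 3, for pituitary hormones on brain arrays, fast fibre genes on brain arrays, slow fibre genes on muscle arrays and adipocyte genes on muscle arrays. Gh and Prl stand high in brain wild types 2 and 3, fast fibre genes in brain mutant 2, and slow fibre genes in muscle mutants 1 and 2.

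Among gene groups not defined by either tissue, imprinted genes were called more often than genes at large, and clock genes and splicing regulators were not. Over all genes, 20.7% were called higher in brain and 20.6% higher in muscle. Of 11 imprinted genes, which are read from 1 parental copy, 8 were called higher in brain and 1 higher in muscle, with a median of 2.31 (2.21 at the bounds). Ndn, necdin, lay at 12.02, 12.08 and 12.45 in brain, against 8.19, 8.30 and 8.44 in muscle, and Peg3 was at least 4.62-fold higher. Cdkn1c, a cell cycle inhibitor, was the member lower in brain, at 7.78, 8.09 and 8.18, against 9.67, 9.80 and 10.12 in muscle. Nnat, neuronatin, varied in muscle, with 4.29, 4.35, 6.31 and 4.49 in mutants, and 6.67, 7.70 and 7.99 in wild types. Of 14 clock genes, 4 were called higher in brain, namely Ciart, Cry2, Per1 and Per2, and 1 higher in muscle. The 4 and 1 became 6 and 0 with median scaling, 7 and 0 with each tissue on its own, and 0 and 1 without background correction. The repressor Nr1d1 was lower in brain, at 7.11, 7.81 and 8.07, against 8.73, 9.25 and 9.60 in muscle, a difference of -1.43 that shrank to -0.62 with median scaling and -0.14 with each tissue on its own, both under the 2-fold limit. The labels give no hour of sampling. Of 15 splicing regulators, 4 were called higher in brain and 2 higher in muscle, or 7 and 2 with median scaling, 8 and 2 with each tissue on its own, and 4 and 4 when scaled to the probes detected on all 14. Elavl2, an RNA binding protein of neurons, was at least 39.9-fold higher in brain, whereas Mbnl1, a regulator of splicing in mature muscle, lay at 10.44, 10.66 and 10.83 in brain, against 12.54, 12.65 and 12.76 in muscle.

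Some genes went both ways, depending on the probe. Of 2957 genes with at least 2 probes compared, 928 had 2 or more called, and 22 of these had probes called in opposite directions. In Kif1b, a kinesin motor, 1 probe averaged 12.31 ± 0.08 (SD, n = 7, as for the next 3 averages) in brain, against 9.96 ± 0.14 in muscle, whereas another averaged 6.61 ± 0.16 in brain, against 12.42 ± 0.10 in muscle. Their differences were 2.35 and -5.82. In Syngr1, synaptogyrin 1, 2 probes, detected on 0 muscle arrays, were at least 14.1-fold and 10.1-fold higher in brain, and 2 were lower, at -1.73 and -3.02. Bin1, of the tubules that carry the calcium signal, was at least 3.05-fold higher in brain for 1 probe and gave -1.36 and -2.06 for the others. Pde4dip gave 1.77 for 1 probe and -3.30 for another, and Tpi1, a glycolytic enzyme, gave 2.30 and -1.54. Actb, an actin of all cells, gave 2.35 for 1 probe and -0.42, -0.89, -2.37 and -2.41 for the others, so it had no single direction here. Its probes at -2.37 and -2.41 varied among the brain arrays, each with an SD of 0.91. The transcripts that these probes read were not resolved, since the tables used here give no probe positions.

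The brain-minus-muscle difference did not depend on genotype past the threshold for any probe. In limma on the 7 within-mouse differences, 0 of 16073 probes (0%) had an adjusted p under 0.05, while 1071 (6.66%) had an unadjusted p under 0.05. Other normalizations and filters gave 0 to 21 probes past the threshold. Mutant and wild-type mice did not overlap for 1111 probes (6.91%). The probe of smallest p was that of Lep, leptin, a hormone of adipocytes. Its difference averaged -2.28 in mutants and -4.78 in wild types, and the gap was 2.50 with an SE of 0.26 and an adjusted p of 0.084. Lep lay between 4.29 and 4.60 on all brain arrays. In muscle it lay at 6.58, 6.62, 7.15 and 6.41 in mutants, and at 8.78, 9.41 and 9.64 in wild types, with no overlap. Over the alternatives listed with the processing, its adjusted p ran from 1.85e-05 to 0.853, and leaving out wild type 1 or mutant 3 brought it to 0.0398 and 0.0371.

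Others among the 10 probes of smallest p were like it in shape. Rbp7, Hp and Angptl4, and both probes of Sncg, had muscle levels lower in all 4 mutants than in all 3 wild types. Angptl4, which blocks lipoprotein lipase, lay in muscle at 7.98, 7.98, 8.35 and 7.53 in mutants, and at 9.52, 9.42 and 9.92 in wild types. The adjusted p-values of these probes ran from 0.084 to 0.18, so none passed. Hacd2, Gldc and Ugt1a6a were also among the 10. The tenth, Itga6, an integrin subunit, had differences of opposite sign, -0.40 in mutants and 0.51 in wild types. In muscle the mean of the adipocyte list was lower in all mutants than in all wild types, as given above. The means of the fatty acid and imprinted lists were lower too, and that of the clock list was higher. The part of these lists in the values was not tested. The brain labels in doubt bear on this test, and without both mice 0 probes had an adjusted p under 0.05 and 895 had an unadjusted p under 0.05.

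**Figure D5:**
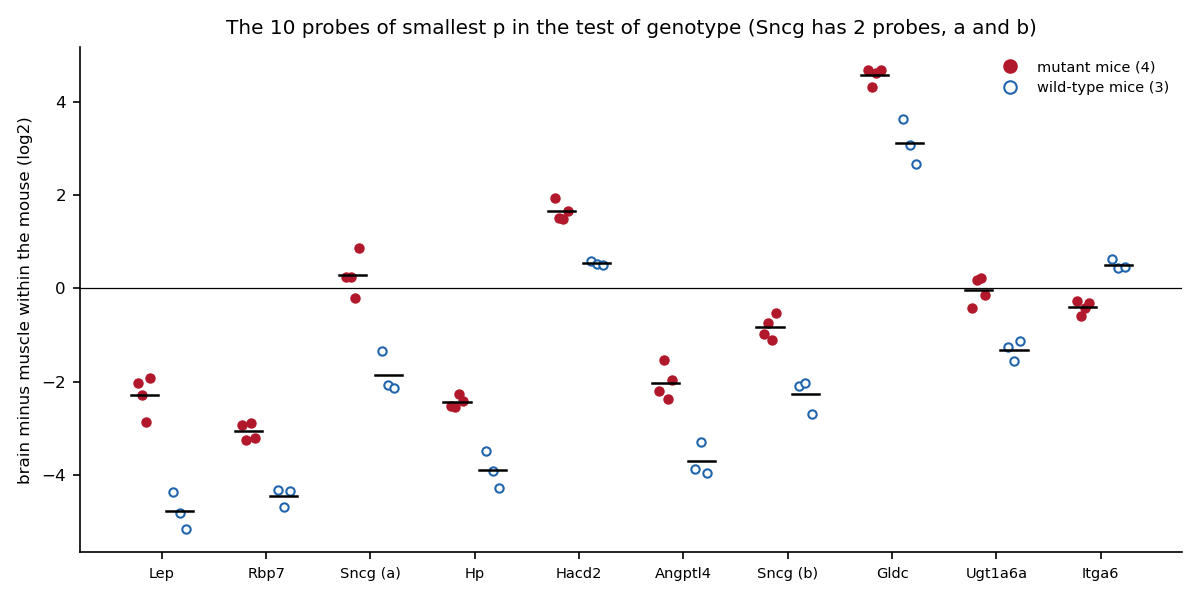
Difference brain minus muscle (log2) within each mouse for the 10 probes of smallest p in the test of genotype, with mutant mice left of wild-type mice and bars at the group means. For 9 probes the mutants lie above the wild types and for Itga6 below, and 0 of the 10 passed an adjusted p of 0.05.

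The counts between tissues moved little without the doubtful pairs. Leaving out the mice of brain wild type 3 and brain mutant 2, 3117 probes were called higher in brain and 3203 higher in muscle, and 6129 of the 6248 calls were shared. All 28 lists kept the sign of their median, and their counts of called members differed by at most 1 in each direction. In wild types alone 3150 probes were called higher in brain and 3157 higher in muscle, and in mutants alone 3062 and 3146. Same-mouse arrays deviated together only weakly. Correlations over probes were 0.0090 to 0.11 for a mouse's own brain and muscle, against -0.11 to 0.10 for arrays of different mice. Of 7 brain arrays, 5 correlated best with the muscle of their own mouse. The exceptions were the brain arrays in doubt. Brain wild type 3 gave 0.0999 with muscle mutant 2, against 0.0930 with its own muscle. Brain mutant 2 gave 0.0989 with muscle wild type 3, against 0.0090 with its own. Whether labels were exchanged was not tested.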

How the data were processed

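RNA was measured on 14 Illumina mouse bead arrays. The authors deposited linear bead intensity per probe and array, made with GenomeStudio 2011.1 per the submitters' processing notes, without normalization as far as the values show. The deposited detection p-value of each probe on each array gives its rank among negative controls, in steps of 0.00125. The authors' processed intensity values served only as an alternative. A table of platform annotation named the probes, and 23978 of 25697 had 1 gene symbol, 0 had several and 1719 had none.

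The neqc function (R 4.3.3, limma 3.58.1) background-corrected the 14 arrays by the detection p, quantile-normalized them together and took log2 after an offset of 16. Probes detected on at least 3 of the 7 arrays of either tissue were kept. Tissues were compared in limma with the mouse as a block (Benjamini-Hochberg adjustment), and called at an adjusted p under 0.05 and at least 2-fold. Genotypes were compared by limma on the 7 within-mouse differences, at an adjusted p under 0.05. The mouse identifiers in the labels gave the pairing, and same-mouse deviations correlated at 0.0090 to 0.11. No 2 arrays held identical values. The test was checked on simulated data.

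Members and lists were chosen with earlier results of these data known. Genes were drawn by the following rules, and the text names only a part of those drawn. One rule took the 12 called probes of largest difference per direction, detected on all 14 arrays with 1 sign in 7 mice. From each list came up to 8 members of largest difference and 4 against its majority. Further rules took all isozyme and sphingolipid genes, 10 genes with probes in opposite directions, and the 10 probes of smallest genotype p. A list uses the probe of highest mean per gene. Alternatives covered background, normalization, filters, the block, the threshold and left-out mice.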

Additional observations from a re-analysis of the deposited data

Results flagged for a closer look

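In 14 of 148 probes looked at, 1 mouse stood apart from the other six in its brain-minus-muscle difference (log2), by a gap that chance gives in about 1 of 20 groups. In mutant 2, whose brain array also held fast fibre signal, Mylpf gave -9.36, against -10.31 to -10.09 in the others, and Tnnc2 gave -8.54, against -10.26 to -9.67. The same mouse gave -2.30 for Col3a1, against -3.54 to -3.18, and 3.16 for Dlg4, against 4.15 to 4.49. Each of these was nearer to 0 in that mouse, and the part of its brain array in this was not tested.

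Mutant 4 gave 7.08 for Bcas1, against 6.01 to 6.46 in the others, 4.54 for Pfkp, against 3.23 to 3.77, and 7.55 for Rbfox3, against 8.09 to 8.21. Mutant 1 gave 6.98 for Map2, against 5.59 to 6.02, and -1.56 for Sptssa, against -1.24 to -0.99. Mutant 3 gave 2.49 for Peg3, against 3.07 to 3.35, and 1.59 for Tpm1, against 0.92 to 1.17. Wild type 1 gave 4.81 for Cck, against 5.92 to 6.64, and 2.37 for the clock gene Per1, against 0.85 to 1.33. Wild type 2 gave 6.14 for Syt1, against 6.77 to 7.10. None of these turned a sign.

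Among the 4 mutants, mutant 2 stood apart for Gldc, which encodes glycine decarboxylase, at 4.31, against 4.62 to 4.68. For Itga6 all 4 mutants were lower in brain and all 3 wild types higher, and the gap of -0.91 between the genotypes had an adjusted p of 0.179 in limma, so it did not pass.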

How the results depend on the processing

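The main limit is the scaling between tissues. The counts were 3087 probes higher in brain, 3161 higher in muscle and 0 with a genotype difference. They became 6386 and 6451 with no minimum difference, and 1569 and 1062 with a minimum of 2 on the log2 scale. Without background correction they were 1631, 1447 and 10, with median scaling 4981, 1470 and 21, and with each tissue on its own 7088, 942 and 6. In that last setting 653 calls turned, among them Sptssa to 0.15 and 1 probe of Kif1b to 0.035. Cox7a2 and Alas2, which were not called, turned to 1.13 and 1.30 and were called higher in brain. Probes detected on all 14 arrays gave 1157 higher in brain, 2467 higher in muscle and 3 with a genotype difference. The genotype count was 9 with an offset of 50, 2 with all 22 arrays together, 1 with strict detection and 15 when scaled to probes detected on all 14 arrays, an alternative chosen after seeing the data, as was leaving out wild types 2 and 3. The cause of these shifts was not tested. Without each mouse in turn, the counts ran from 3040 to 3118, 3091 to 3188 and 0 to 4, the 4 without wild type 1. With no replicate block they were 3086, 3161 and 6, and the pairing changed no other count by over 1.5 times. Of 4160 recomputed values for 179 named gene results, 4007 kept their direction and side of the threshold, 87 lost the call, 62 gained one and 4 reversed. Small differences and probes near background are limited most.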
